A study of Mus musculus with 53 samples.

Results

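Myc and 34 genes that build ribosomes in the nucleolus were followed through mouse intestine in which Apc was lost or Braf was activated. The 35 genes were taken by symbol from the deposited count table, every one of them had a row, and the table holds 55421 genes in all. Counts came from 53 RNA-seq libraries in 11 groups of whole tissue, with totals of 516985 to 32824795 counts per library. All mice, the WT controls included, carried VilCreER+, a tamoxifen-inducible Cre driven by the Villin promoter, and all were given tamoxifen as young adults. The Cre acts in the intestinal epithelium, so muscle, stroma and immune cells in each sample kept their alleles. In these bulk samples, fewer cells of a type and less RNA per cell cannot be told apart.

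In the small intestine, Apcfl/fl tissue at day 4 after induction (n = 10) was compared with WT tissue at day 4 (WT SI day 4, n = 6), both on a mixed C57BL/6J background backcrossed to N6. Apcfl/+ adenomas (n = 5) were compared with WT small intestine (WT SI, n = 3), both inbred at N9; adenomas form from cells that lose the remaining Apc allele. In the proximal colon, primary tumours of BrafV600E/+ Alk5fl/fl mice (BA tumour, n = 4) were compared with WT proximal colon (n = 3). Alk5 is another name of Tgfbr1, which encodes a TGFβ receptor. Proximal colon at day 30 came from WT (n = 4), Alk5fl/fl (A, n = 4) and BA mice (n = 5), from A mice given sulindac at 0.4 g/L in drinking water for 14 days (n = 4) and from BA mice given ampicillin, neomycin and metronidazole at 1 g/L each with vancomycin at 500 mg/L (n = 5). The colonic mice were on the mixed background, and the study used males and females.

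MYC is a transcription factor that binds DNA with its partner MAX, most often at the sequence CACGTG, and ribosome production is among its best known outputs. Intestinal crypt cells turn Myc on through Wnt signalling, which Apc restrains by marking β-catenin for destruction. Making a ribosome begins when RNA polymerase I transcribes the rRNA precursor in the nucleolus. Box C/D and box H/ACA particles then modify it, the small subunit processome cuts and folds it, and further factors mature the large subunit before export.

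The promoters are shown first because CACGTG is the sequence by which these genes are usually tied to MYC. Of the 35 genes, 28 had a window from 250 bases before to 50 after the start in the RefSeq promoter table (GRCm38.p6), and Myc, Npm1, Fbl, Rrs1, Bop1, Tcof1 and Rrp12 were not matched. The motif stood in 4 windows: Wdr43 (chr17:71615965-71616264, plus strand), Mybbp1a (chr11:72441077-72441376, plus strand), Utp20 (chr10:88826765-88827064, minus strand) and Pes1 (chr11:3963725-3964024, plus strand). Capitals mark CACGTG, which reads the same on both strands and overlaps no other motif searched.
Wdr43: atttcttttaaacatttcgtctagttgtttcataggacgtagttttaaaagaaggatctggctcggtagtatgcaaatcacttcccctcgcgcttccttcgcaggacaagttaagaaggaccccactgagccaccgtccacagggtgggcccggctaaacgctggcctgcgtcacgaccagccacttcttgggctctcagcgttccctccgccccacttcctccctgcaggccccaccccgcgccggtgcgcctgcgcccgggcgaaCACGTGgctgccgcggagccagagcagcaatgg
Mybbp1a: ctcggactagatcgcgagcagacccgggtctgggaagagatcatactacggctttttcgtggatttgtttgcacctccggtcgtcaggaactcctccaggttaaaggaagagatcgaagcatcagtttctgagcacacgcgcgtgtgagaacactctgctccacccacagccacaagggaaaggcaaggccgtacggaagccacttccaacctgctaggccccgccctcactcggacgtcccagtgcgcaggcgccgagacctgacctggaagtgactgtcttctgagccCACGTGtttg
Utp20: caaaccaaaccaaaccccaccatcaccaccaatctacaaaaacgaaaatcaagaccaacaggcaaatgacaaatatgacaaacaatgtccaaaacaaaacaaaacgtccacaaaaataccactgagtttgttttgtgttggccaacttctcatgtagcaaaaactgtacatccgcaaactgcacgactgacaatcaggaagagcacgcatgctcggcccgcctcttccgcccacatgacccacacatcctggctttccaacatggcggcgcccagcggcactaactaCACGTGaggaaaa
Pes1: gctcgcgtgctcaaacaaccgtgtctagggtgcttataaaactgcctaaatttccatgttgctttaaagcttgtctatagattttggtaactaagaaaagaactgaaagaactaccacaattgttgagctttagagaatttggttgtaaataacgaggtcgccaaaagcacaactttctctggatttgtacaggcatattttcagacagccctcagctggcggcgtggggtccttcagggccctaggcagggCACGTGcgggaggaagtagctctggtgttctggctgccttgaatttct
In these windows the motif begins at base +18 of Wdr43, +41 of Mybbp1a, +38 of Utp20 and +3 of Pes1, counted from +1 at the start, so it lay just downstream of the start in each. The share of genes with the motif was 14.3% of the 28 matched and 8.09% of 27025 genes in the table. A match is only a run of letters, and its absence in the other windows bears on nothing outside them.

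Some libraries stood apart before any comparison. Apcfl/fl replicate 1 held 516985 counts, the fewest of all. BA tumour replicate 2 had 24.5% of its counts in its top 10 genes, where the other BA tumours had 12.4% to 15.3%. Apcfl/fl replicate 8 had 34.2 CPM (counts scaled to library size) of Apc, where the other Apcfl/fl libraries had 125 to 174 and WT had 64.0 to 97.3. It was low in Braf and Tgfbr1 as well, at 11.7 and 23.1 CPM, where the other Apcfl/fl libraries had 32.2 to 42.0 and 36.8 to 71.0. The floxed alleles lose only part of Apc or Tgfbr1, and BrafV600E is a point change, so gene totals do not check the genotypes. Reads on Gm13394, a copy of Gapdh, split the libraries into sets above and below 10 CPM: 6 of 10 Apcfl/fl and 3 of 6 WT libraries at day 4 were above, all 18 libraries of A and BA mice at day 30 were above and all 4 of their WT were below, all 3 WT SI were above and all 5 Apcfl/+ tumours below, and 3 of 4 BA tumours were above with all 3 WT proximal colons below. Levels of Ncl and Gar1 did not overlap between the 15 tumour-stage libraries with their controls and the other 38, while those of the other genes followed did. Ncl ran from 55.6 to 196 CPM in the first and from 252 to 1575 in the second, and Gar1 from 1.45 to 8.13 and from 12.7 to 84.4. Levels are therefore set against each other only within a comparison. As a check of the labelled tissue, 6 enterocyte markers of the small intestine summed to 16592 to 30816 CPM in WT SI day 4 and 14495 to 26065 in WT SI, against 642 to 1003 in WT proximal colon and 537 to 1322 in WT day 30, and 6 colon markers to 289 to 411, 247 to 261, 12157 to 25315 and 24162 to 30242 in the same order. Among Apcfl/+ tumours the enterocyte sum ran from 36.3 to 9480.4.

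All 35 genes rose after acute Apc loss. In Apcfl/fl tissue at day 4, 35 of 35 rose and 0 fell against WT SI day 4 at an adjusted p under 0.05, with a median log2 fold change of 1.25, while 27.5% of all genes tested rose, 26.7% fell and their median was -0.00. Normalised CPM of Myc was 84.4 at the lowest, 149 at the median and 194 at the highest among 10 Apcfl/fl libraries. It was 24.4 at the lowest, 37.8 at the median and 61.8 at the highest among 6 WT libraries. The groups did not overlap, and Myc was 3.82-fold higher (log2 fold change 1.93 ± 0.20, adjusted p = 1.51e-06, edgeR quasi-likelihood test; ± is the standard error throughout).

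**Figure D1:**
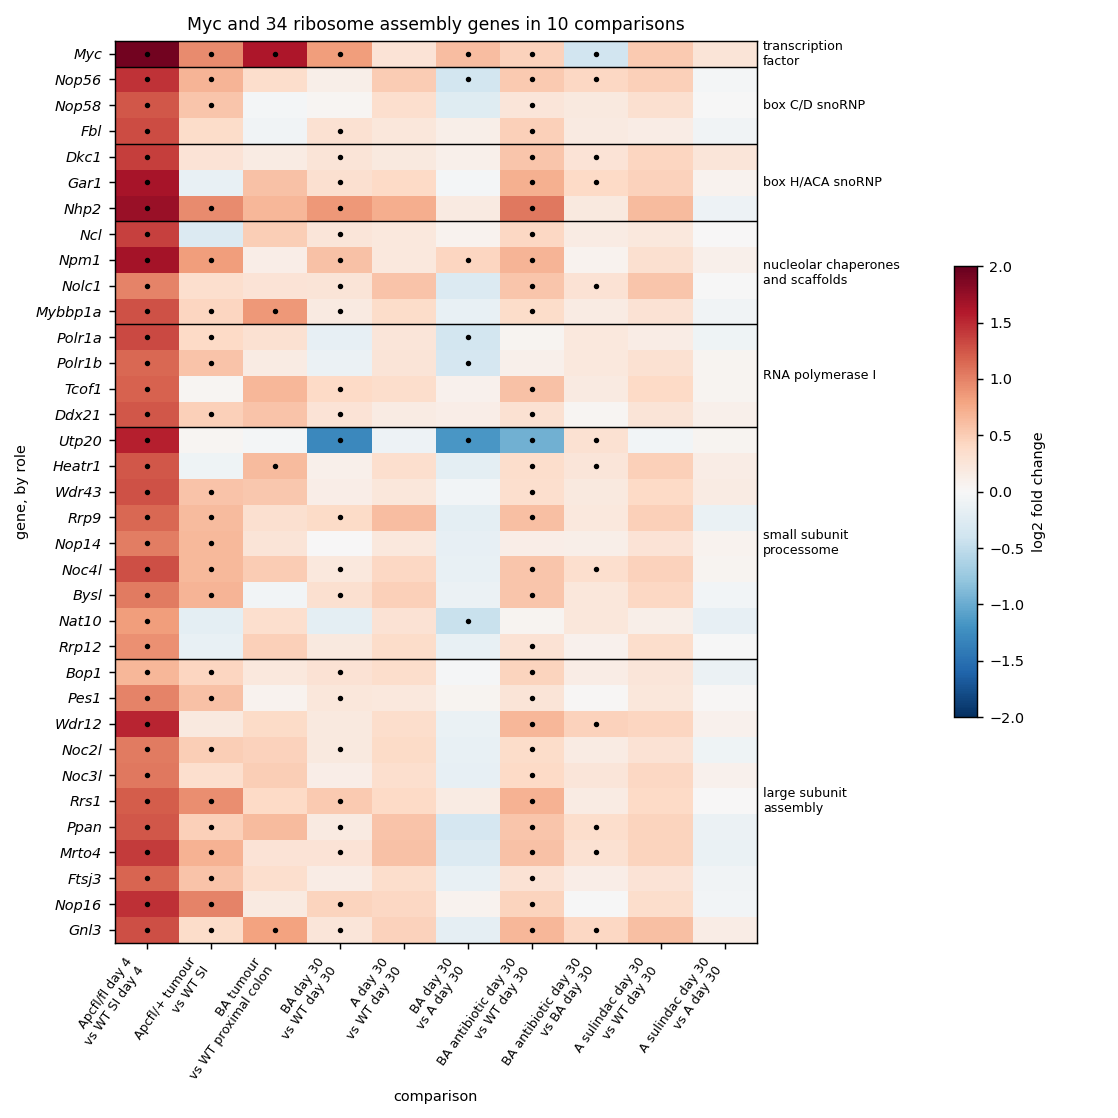
The heat map shows the log2 fold change of each gene (rows, by role) in each of 10 comparisons (columns); red is higher, blue is lower, the scale runs from -2 to 2 and a dot marks an adjusted p under 0.05. All 35 genes carry a dot in the first column. Utp20 is blue with a dot for BA and BA antibiotic tissue against WT day 30, and for BA against A tissue.

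By role, the box H/ACA proteins had the highest median after Myc, 1.65 on the log2 scale. Nhp2 and Gar1, protein subunits of the box H/ACA particles, had log2 fold changes of 1.72 ± 0.38 (adjusted p = 0.00116) and 1.65 ± 0.22 (adjusted p = 1.12e-05). Their partner Dkc1, the pseudouridine synthase, rose by 1.38 ± 0.18. Apcfl/fl replicate 8 had Nhp2 at 392 normalised CPM, where the other Apcfl/fl libraries had 60.5 to 155. Gar1 was 52.6 at the lowest, 71.0 at the median and 84.4 at the highest in Apcfl/fl and 14.2 at the lowest, 17.8 at the median and 36.8 at the highest in WT, in normalised CPM. The box C/D proteins Nop56, Nop58 and fibrillarin (Fbl), the methyltransferase, had log2 fold changes of 1.45, 1.25 and 1.31.

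Among nucleolar chaperones, Npm1 rose by 1.66 ± 0.23. Nucleolin (Ncl), an abundant RNA-binding protein of the nucleolus, rose by 1.37 ± 0.22, and Nolc1, a chaperone of the modification particles, by 0.99 ± 0.24. Polr1a and Polr1b, the large catalytic subunits of RNA polymerase I, rose by 1.32 ± 0.23 and 1.14 ± 0.19. The small subunit processome spanned 0.83 for the acetyltransferase Nat10 to 1.55 for the scaffold Utp20. Large subunit factors spanned 0.67 for Bop1 to 1.52 for Wdr12, and these proteins work in one complex with Pes1 (0.98).

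Calls rested on spread as well as size: in 13 of the 35 genes every Apcfl/fl library was above every WT library, beside 6.54% of all genes. Replicates 5 and 6 of WT SI day 4 were the highest controls by mean level of the 34 assembly genes, with Npm1 at 288 and 274 CPM where the other 4 had 146 to 169. All 35 stayed called whichever single library was left out, and without replicates 1 and 8 of Apcfl/fl together. Within libraries above 10 CPM of Gm13394, 29 of 35 rose, beside 2450 of 18055 genes in all (the calls lost were Nolc1, Tcof1, Bysl, Nat10, Rrp12 and Bop1). Within those below it 35 did, beside 4942 of 17208 genes in all. Immune markers summed to 134 to 176 CPM in Apcfl/fl against 299.9 to 503 in WT, with 7 of 10 lower. Markers of small intestinal enterocytes fell in 6 of 6, and no marker on these lists was at 0 in either group. The part of cell mixture in the 35 values was not tested.

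**Figure D2:**
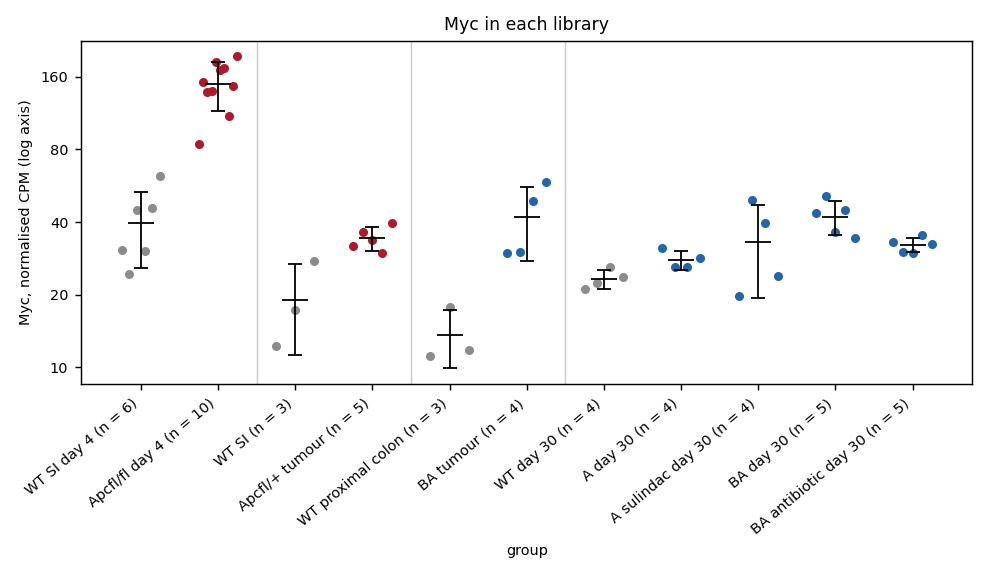
Each point is the normalised CPM of Myc in 1 library on a log axis, by group, with the mean and SD as black bars; grey is WT, red is Apc mutant and blue is A or BA. Apcfl/fl tissue at day 4 runs from 84.4 to 194, above its WT at 24.4 to 61.8.

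In Apcfl/+ adenomas most but not all of the genes rose. Here 23 of 35 genes rose and 0 fell against WT SI, beside 31.4% of all genes that rose and 61.5% called in either direction, and the median log2 fold change was 0.48 against 0.03 over all genes. Myc had 31.8, 36.5, 33.6, 29.8 and 39.5 normalised CPM in the 5 tumours and 12.3, 17.2 and 27.7 in the 3 WT libraries. Every tumour was above every WT library, and Myc rose by 0.94 ± 0.24, adjusted p = 0.00882. The same held for 20 of the 35 genes and 26.0% of all genes.

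Beside Myc, the largest rises were those of Nop16, Nhp2, Rrs1 and Npm1. Nop16, a nucleolar protein bound to the large subunit, rose by 0.99 ± 0.16, adjusted p = 0.000954. Nhp2 rose by 0.94 ± 0.20, Rrs1, a factor that brings 5S rRNA into the large subunit, by 0.93 ± 0.19, and Npm1 by 0.84 ± 0.19. By role, 9 of 11 large subunit factors, 5 of 9 processome members, 2 of 4 chaperones and scaffolds, 2 of 3 box C/D and 1 of 3 box H/ACA proteins rose. So did 3 of the 4 genes grouped with RNA polymerase I, which are Polr1a, Polr1b, Tcof1 and Ddx21.

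Others were flat or had negative values that did not pass the test. Ncl had 137, 118, 124, 117 and 127 CPM in the tumours and 95.0, 190.3 and 196 in WT, so that WT replicate 1 lay below all tumours and replicates 2 and 3 above them (log2 fold change -0.27 ± 0.22, adjusted p = 0.307). Heatr1, a long processome scaffold, gave -0.08 ± 0.13, adjusted p = 0.587, and Nat10 -0.20 ± 0.14, adjusted p = 0.247. Utp20, which rose with acute loss, gave 0.04 ± 0.15 and no call. WT SI replicate 1 was the lowest control for every one of the 35 genes, those that rose included. Its mean log2 level of the assembly genes was 4.96, where the next lowest control, replicate 3, had 5.44. The size of each rise in the adenomas therefore depends in part on this library. Without WT SI replicate 1, 2 genes, Ncl and Gar1, fell.

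Short and long genes differed in their medians, and not in the same direction everywhere. In the adenomas, the 6 genes with under 1000 coding bases had a median log2 fold change of 0.77 and the 8 with at least 3000 one of 0.04. The same medians over all coding genes were 0.37 and -0.15. Acute Apc loss gave 1.56 and 1.21 in the 35 genes, and 0.03 and -0.04 over all coding genes. BA tissue at day 30 gave 0.38 and -0.01 in the 35 genes, beside 0.00 and -0.04 over all. A tissue at day 30 against WT gave 0.41 and 0.31 in the 35 genes, beside 0.12 and -0.13 over all. BA tumours went the other way, with 0.23 and 0.41 in the 35 genes and -0.15 and 0.19 over all. Gene length and role cannot be told apart within so few genes, and the part of length in these values was not tested.

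**Figure D3:**
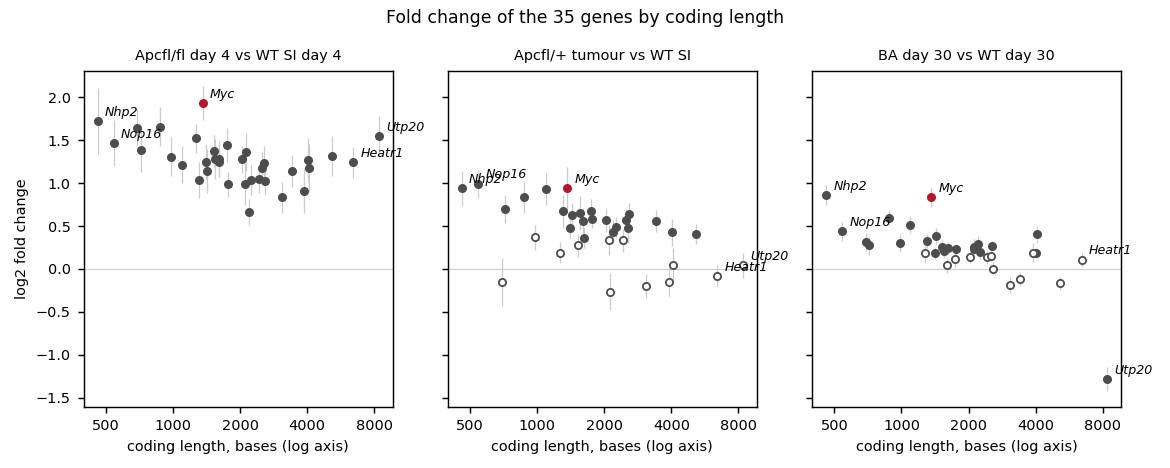
Log2 fold change (with its standard error) of the 35 genes by coding length in bases on a log axis, in 3 comparisons; filled points passed an adjusted p of 0.05, and Myc is red. The longest gene, Utp20, is at 1.55 in the first panel, 0.04 in the second and -1.28 in the third.

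The adenoma comparison could not be separated from the library sets, because all WT libraries were above and all tumours below 10 CPM of Gm13394. Ddx3y, a gene of the Y chromosome, was above 10 CPM in 3 of 3 WT and 1 of 5 tumour libraries (replicate 1). With a term for Ddx3y the tumour effect rests on that library alone. Calls of Myc, Nop56 and Rrs1 were among those lost under it, but a fit that rests on 1 tumour cannot decide which calls hold. Stromal markers rose in 9 of 10 and summed to 3064 to 4013 CPM against 1312 to 1642, neutrophil markers rose in 6 of 8, and muscle markers fell in 4 of 8 and immune markers in 7 of 10. Their part was not tested.

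In BA tumours Myc rose without most of the assembly genes passing the test. Against WT proximal colon, 4 of 35 genes rose and 0 fell, beside 7.46% and 5.71% of all genes, with a median log2 fold change of 0.35 (0.03 over all genes). Of the 34 assembly genes, 30 had positive values, beside 9972 of 19188 genes in all. Their mean log2 level was 5.09 to 5.34 in the tumours and 4.78 to 4.98 in WT, without overlap. Myc had 29.9, 30.11, 48.8 and 58.6 CPM in the 4 tumours and 11.1, 17.8 and 11.8 in the 3 WT libraries, which did not overlap, and rose by 1.62 ± 0.32, adjusted p = 0.0125. Mybbp1a, a nucleolar protein that also binds MYB, had 90.4, 102, 99.3 and 102 CPM against 46.6, 57.3 and 55.7 and rose by 0.87 ± 0.17, adjusted p = 0.0132. Gnl3 (nucleostemin), a GTPase of the large subunit pathway, rose by 0.81 ± 0.19, adjusted p = 0.0235, and Heatr1 by 0.63 ± 0.18, adjusted p = 0.0494.

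A call was not the same as separation with so few libraries: in 13 of 35 genes every tumour was above every WT, beside 14.6% of all genes, and 11 of 35 had an unadjusted p under 0.05, as had 5420 of 19188 genes in all. Nop58, Fbl, Bysl and Utp20 had the lowest values, from -0.08 to -0.03. Npm1 had 163, 251, 297 and 287 CPM in tumours and 248.8, 188 and 238 in WT, and the groups overlapped. The count of 4 rests on single libraries: it was 0 without WT proximal colon replicate 1, 2 without replicate 2 or 3 of WT or replicate 3 or 4 of the tumours, and 8 without BA tumour replicate 2. Without WT replicate 3 the call of Myc was among those lost, as it was without WT replicate 1. The calls over all genes fell as well, to 395 higher and 301 lower without WT replicate 1, 570 higher and 519 lower without WT replicate 3 and 891 higher and 489 lower without BA tumour replicate 4, from 1431 higher and 1096 lower with every library. With a term for Ddx3y the median was 0.149. Only BA tumour replicate 1 was, like every WT library, below 10 CPM of Ddx3y, so the effect under that term rests on it alone. A term for Gm13394, chosen after seeing the data, rests likewise on BA tumour replicate 2 alone. Myc lost its call under either term, but a fit that rests on 1 tumour cannot decide which calls hold. Neutrophil markers rose in 8 of 8, stromal in 5 of 10 and immune in 5 of 10 (stromal sums of 4793 to 5964 CPM against 1780.0 to 2753), and muscle markers fell in 4 of 8. Their part was not tested.

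BA tissue at day 30 rose by small amounts in most genes, with Utp20 as the exception. Of the 35, 22 rose and 1 fell against WT day 30, beside 25.8% and 29.3% of all genes, and the median log2 fold change was 0.23 against -0.03 over all genes. Myc had 43.6, 51.1, 36.3, 45.0 and 34.3 CPM in the 5 BA libraries and 21.1, 22.4, 26.0 and 23.8 in the 4 WT, without overlap, and rose by 0.84 ± 0.12, adjusted p = 0.000159. Such separation was found for 18 of 35 genes and 22.6% of all genes. Nhp2 rose as far, by 0.86 ± 0.12, adjusted p = 0.000120, with 44.6, 42.6, 44.6, 37.7 and 53.3 CPM against 24.6, 29.8, 22.4 and 20.5. Npm1 rose by 0.59 ± 0.08 and Rrs1 by 0.52 ± 0.10. The remaining 18 rose by 0.18 to 0.44.

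Utp20 fell. It had 46.1, 41.1, 52.7, 43.4 and 41.2 CPM in BA and 148, 94.8, 86.8 and 104 in WT, every BA library being below every WT library, for a change of -1.28 ± 0.14, adjusted p = 2.27e-05. In BA tumours the same gene had 86.3, 58.1, 71.9 and 70.3 CPM against 60.7, 94.1 and 63.8 in WT (-0.04 ± 0.21, adjusted p = 0.917). Polr1a, Polr1b and Nat10 also had negative values (-0.17, -0.12 and -0.19), none of which passed the test.

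The count higher was 12 without WT day 30 replicate 4, 14 without WT day 30 replicate 3 and 9 when all 5 groups of day 30 shared one fit, and without BA day 30 replicate 3 Polr1a fell as well. Every BA library and no WT library was above 10 CPM of Gm13394, so genotype and library set cannot be told apart. Epithelial markers summed to 21234 to 25192 CPM in BA against 10815 to 12937 in WT (8 of 10 higher), stromal markers were lower in 8 of 10 and muscle markers in 6 of 8. The 8 neutrophil markers summed to 329 to 527 CPM in BA against 3.30 to 5.41 in WT, and Ly6g alone had 324 to 523 and 0.0524 to 0.316 (log2 fold change 10.77, adjusted p = 6.32e-10). Of the 3 that passed the filter on low counts, Il1r2 was lower (-0.60, adjusted p = 0.0358) and Csf3r gave 0.50, adjusted p = 0.0985. The part of these cell types was not tested.

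Loss of Alk5 alone gave no call. In A tissue at day 30 against WT, edgeR called 0 of 35 genes in either direction (0.0960% of all genes rose and 0.0452% fell) and DESeq2 called 0, while 21 of 35 had an unadjusted p under 0.05 in edgeR, as had 1717 of 17713 genes in all. The median log2 fold change of 0.35 (0.01 over all genes) stood beside a wide spread: the SD of the mean level of the assembly genes was 0.232 in A and 0.1004 in WT, in log2 units. Nop56 had 57.5, 49.7, 52.5 and 36.01 CPM in A and 33.0, 39.3, 34.7 and 31.3 in WT, for 0.51 ± 0.15, adjusted p = 0.441. Myc had 31.2, 26.0, 26.0 and 28.3 CPM, all above the WT values, for 0.27 ± 0.11, adjusted p = 0.510. As every A library and no WT library was above 10 CPM of Gm13394, genotype and library set cannot be told apart here either.

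With Braf activated on the A background, Myc and Npm1 were higher and 5 assembly genes lower. Against A tissue, BA tissue had 2 genes higher and 5 lower, beside 21.7% and 23.6% of all genes, so both shares were smaller among the 35 than among all genes, with a median of -0.15 (-0.06 over all genes). Myc rose by 0.61 ± 0.13, adjusted p = 0.00245, and Npm1 by 0.42 ± 0.09, adjusted p = 0.00301. Utp20 fell by 1.16 ± 0.17 on the log2 scale (adjusted p = 0.000283), from 88.9, 78.4, 142 and 94.4 CPM in A. Nat10, Polr1a, Nop56 and Polr1b were lower too, at -0.44, -0.37, -0.36 and -0.34 (adjusted p = 0.00720, 0.0265, 0.0441 and 0.0118). Both groups lay above 10 CPM of Gm13394, so this comparison is within one library set. The count lower was 9 without A day 30 replicate 4 and 3 without A replicate 2 or 3 or BA replicate 4 or 5, and without A day 30 replicate 1 it was 4, beside 5 higher (Myc, Npm1, Fbl, Nhp2 and Rrs1). Epithelial markers were higher in 8 of 10 and stromal markers lower in 5 of 10, and their part was not tested.

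**Figure D4:**
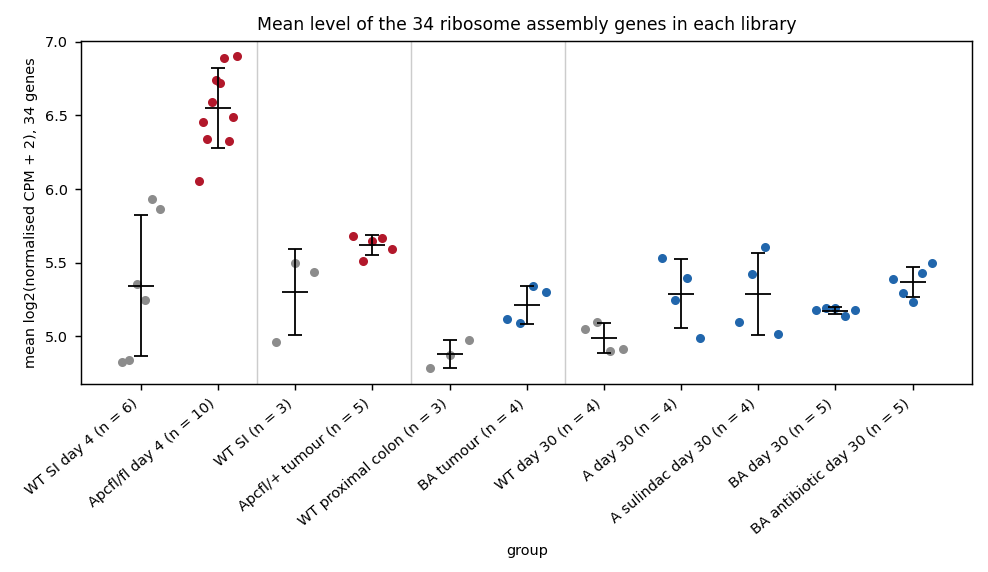
Each point is the mean of log2(normalised CPM + 2) over the 34 assembly genes in 1 library, by group, with mean and SD as black bars and colours as for Myc. Apcfl/fl tissue runs from 6.05 to 6.90 and its WT from 4.82 to 5.93; BA day 30 runs from 5.14 to 5.19 and A day 30 from 4.99 to 5.53.

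Most assembly genes were higher than WT in BA tissue given antibiotics. BA antibiotic tissue had 30 of 35 genes higher and 1 lower than WT day 30 (21.8% and 17.8% of all genes), with a median log2 fold change of 0.45 (0.01 over all genes). In 26 of the 35 every treated library was above every WT library, beside 17.4% of all genes. Nhp2 rose most, by 1.06 ± 0.11, adjusted p = 5.75e-05. Gar1 rose by 0.72 ± 0.11 and Rrs1 by 0.69 ± 0.11, while Utp20 was again lower (-0.96 ± 0.14, adjusted p = 0.000408). Myc rose by 0.47 ± 0.08, adjusted p = 0.00116, a call that was lost, with those of Nop58, Fbl, Wdr43, Rrp12 and Ftsj3, when all 5 groups of day 30 shared one fit. Polr1a, Polr1b, Nop14 and Nat10 did not pass the test (0.05, 0.11, 0.14 and 0.06). Epithelial markers were higher in 8 of 10 and immune markers lower in 4 of 9 tested, and genotype with treatment and library set cannot be told apart.

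The treated and untreated BA groups, which share this WT control, were also compared directly. Of the 34 assembly genes, 11 were higher and Myc was lower with antibiotics, beside 4.53% and 8.50% of all genes. Myc had 33.0, 30.14, 29.9, 35.2 and 32.5 CPM with antibiotics and 43.6, 51.1, 36.3, 45.0 and 34.3 without, the ranges overlapping slightly, for -0.38 ± 0.10, adjusted p = 0.0341. Wdr12 rose by 0.46 ± 0.11, adjusted p = 0.0231, Gnl3 by 0.42 ± 0.10, Nop56 by 0.41 ± 0.12, Gar1 by 0.39 ± 0.07 and Utp20 by 0.31 ± 0.08. The median over the 35 was 0.20, and 0.03 over all genes. The count higher was 4 without BA antibiotic replicate 5, 5 without BA replicate 4, 6 without BA replicate 3 or BA antibiotic replicate 4, and 7 without BA replicate 1 or 5. The call of Myc was lost without BA replicate 1, 2 or 4 or BA antibiotic replicate 2 or 5, and the fit of all 5 groups at day 30 called 0. DESeq2 on the 2 groups alone called 12 higher and 1 lower. BA antibiotic replicate 3 had the highest stromal sum, 7946 CPM where the group's median was 1605, and without it 11 genes were higher.

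Sulindac moved none of the 35 genes past the test. Against untreated A tissue, edgeR and DESeq2 each called 0, 0 had an unadjusted p under 0.05 (of all genes, 460 of 17568), and edgeR called 0% of all genes; the median was 0.00. Myc had 19.7, 49.5, 39.5 and 24.0 CPM with sulindac, a wider range than in A tissue, for 0.25 ± 0.25, adjusted p = 1.00. Against WT day 30, sulindac-treated A tissue also had 0 calls by edgeR and by DESeq2 (0.0507% of all genes rose and 0% fell), with 13 at an unadjusted p under 0.05 in edgeR, as had 1607 of 17742 genes in all, and a median of 0.39 (0.02 over all genes). Genotype with treatment and the Gm13394 library set cannot be told apart in this comparison with WT.

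The effects of Apc loss and those in BA tissue were then tested against each other, each relative to its own control. In BA against WT, Braf activation and Alk5 loss come together, while in BA against A both groups carry the Alk5 loss. Acute Apc loss had a larger effect than BA at day 30 in 27 of 35 genes and a smaller one in 0, beside 17.5% and 19.1% of all genes, and the median difference in log2 fold change was 0.99 (0.07 over all genes). For Myc the difference was 1.03 ± 0.27, adjusted p = 0.00387. It was largest for Utp20, at 2.78 ± 0.32, adjusted p = 4.19e-07, a gene that rose in one and fell in the other. Nop56 gave 1.28 ± 0.26, adjusted p = 0.000418, and Polr1a 1.44 ± 0.31, adjusted p = 0.000658. The 8 without a call included Nhp2 (0.79 ± 0.48, adjusted p = 0.208, 95% interval -0.16 to 1.74), Bop1, Rrs1 and Rrp9. These comparisons differ in tissue and in day as well as in genotype, which cannot be told apart.

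Set against the effect of Braf on the A background, Apc loss was larger in all 35 genes and smaller in 0 (20.7% and 19.8% of all genes), with a median difference of 1.32 (0.09 over all genes). Differences ran from 0.68 for Bop1 to 2.69 for Utp20. Myc gave 1.32 ± 0.27, adjusted p = 0.000427. Leaving out 1 library at a time left 34 or 35 genes called.

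Between tumour types few differences passed the test. The Apcfl/+ tumour effect was larger than the BA tumour effect in 2 genes, Nop16 (0.78 ± 0.24, adjusted p = 0.0198) and Bysl (0.70 ± 0.26, adjusted p = 0.0437), and smaller in 2, Heatr1 (-0.75 ± 0.20, adjusted p = 0.00999) and Ncl (-0.78 ± 0.30, adjusted p = 0.0499). Of all genes, 17.7% had a larger and 21.9% a smaller effect, and the median difference was 0.06 over the 35 genes (-0.05 over all genes). Bysl and Heatr1 are both processome factors, and they differed in opposite directions. For Myc the difference was -0.70 ± 0.39, adjusted p = 0.167, with a 95% interval of -1.47 to 0.07. The counts rest on single libraries. The count larger was 0 without WT proximal colon replicate 1 or WT SI replicate 1, 1 without WT proximal colon replicate 3, 4 without BA tumour replicate 3 or 4 or Apcfl/+ tumour replicate 2, and 5 without BA tumour replicate 2. The count smaller was 0 without WT SI replicate 2, 7 without WT SI replicate 1, and 1 without any other library except BA tumour replicate 2 and WT proximal colon replicate 3. Tissue, genetic background and library set differ along with genotype here and cannot be told apart from it.

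**Figure D5:**
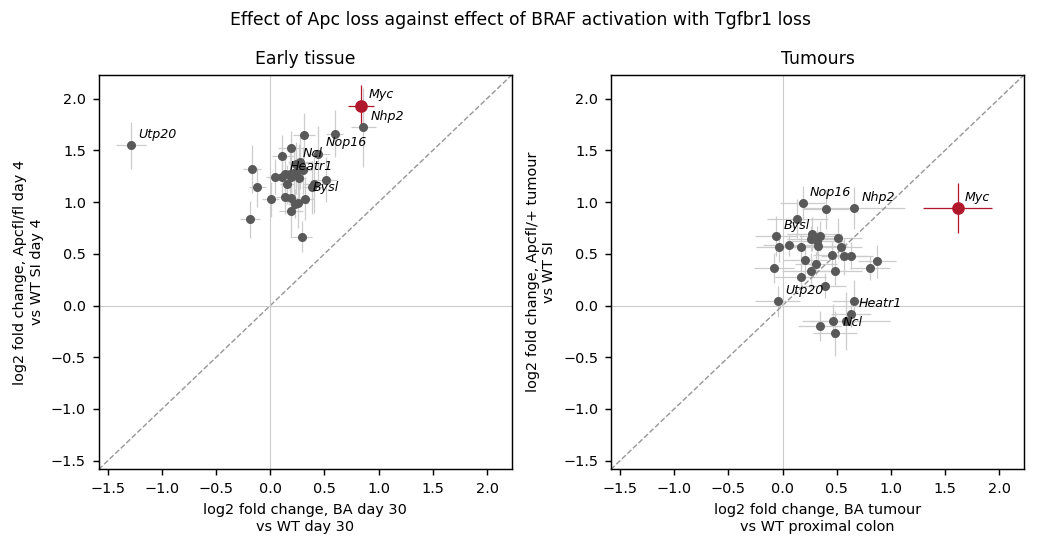
Each point is 1 of the 35 genes, with standard errors; the left panel plots the log2 fold change of Apcfl/fl day 4 against that of BA day 30, the right panel Apcfl/+ tumour against BA tumour, and the dashed line marks equal change. Every point of the left panel lies above the line, and the right panel scatters on both sides, with Myc (red) at 0.94 for Apcfl/+ and 1.62 for BA tumours.

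Other genes of the pathway gave a frame for these values, to be read against all genes, of which 27.5% rose with acute Apc loss, 31.4% in Apcfl/+ tumours, 7.46% in BA tumours and 25.8% in BA tissue at day 30. Of 68 further ribosome assembly factors, acute Apc loss had 67 higher and 0 lower, Apcfl/+ tumours 53 higher and 1 lower, BA tumours 1 higher and 1 lower, and 30 higher and 2 lower in BA tissue at day 30. Naf1, which loads the box H/ACA particles, led in the first (1.605, adjusted p = 5.17e-06). Nop10, the smallest protein of those particles, led at day 30 in BA (0.94, adjusted p = 1.60e-06), where Ddx47, an RNA helicase, was lowest (-0.31, adjusted p = 0.00119). Of 77 ribosomal proteins, 72 were higher with acute Apc loss, 76 in Apcfl/+ tumours, 0 in BA tumours (edgeR; 0 at an unadjusted p under 0.05) and 46 in BA tissue at day 30, and 0 were lower in any of the 4. In BA tumours 75 of the 77 had positive values, beside 9972 of 19188 genes in all, and the spread was wide. The 77 summed to 18760 to 119573 CPM there (median 30844), against 30938 to 46849 in WT (median 37922).

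Of 20 MYC targets outside ribosome assembly, 18 were higher with acute Apc loss, 12 in Apcfl/+ tumours, 1 in BA tumours and 16 in BA tissue at day 30. Odc1, the first enzyme of polyamine synthesis, led at day 30 in BA tissue with and without antibiotics (1.89, adjusted p = 2.22e-06 and 1.37, adjusted p = 1.70e-06). Ccnd2, a D-type cyclin, was the one higher in BA tumours (1.79, adjusted p = 0.00468) and was lower in Apcfl/+ tumours (-0.89, adjusted p = 0.0104).

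Of 11 genes of the MYC network, 2 were higher and 5 lower with acute Apc loss, 5 and 4 in Apcfl/+ tumours, 1 and 0 in BA tumours, and 5 and 1 in BA tissue at day 30. Mycl, a paralogue of Myc, was higher with acute Apc loss (2.04, adjusted p = 1.61e-05), in Apcfl/+ tumours (2.02, adjusted p = 0.0129) and in BA tissue at day 30 (0.98, adjusted p = 2.24e-06). Mycn, another paralogue, rose in Apcfl/+ tumours (2.62, adjusted p = 0.000257) and gave -0.71, adjusted p = 0.196 in BA tissue at day 30. Mxd1 encodes a MAX partner that opposes MYC in differentiated cells. It was lower with acute Apc loss (-1.57, adjusted p = 5.79e-06) and in Apcfl/+ tumours (-1.39, adjusted p = 0.000187), and higher in BA tissue at day 30 against WT (1.31, adjusted p = 1.66e-06) and against A (1.70, adjusted p = 1.52e-05). In BA tumours the one call was Mnt, another MAX partner, which was higher (0.89, adjusted p = 0.0434). Of 16 cell cycle genes, 16 were higher with acute Apc loss, 7 in Apcfl/+ tumours, 0 in BA tumours and 5 in BA tissue at day 30, against 27.5%, 31.4%, 7.46% and 25.8% of all genes. Of the Wnt targets tested, 8 of 8, 8 of 8, 1 of 8 and 1 of 7 were higher in the same order, and 6 of 7 were lower in BA tissue at day 30.

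Counting limits some of the values. Stretches of 36 bases, the read length, recur elsewhere in the annotated transcripts for 31.3% of Pes1, 27.7% of Npm1, 21.4% of Nop56, 21.1% of Fbl and 19.7% of Noc2l, so reads of these genes may have been split or dropped. Exons of 15 of the 35 genes overlap a gene on the opposite strand, among them Noc2l with Samd11, Bysl with Ccnd3 and Nhp2 with Rmnd5b, and without a known strand setting such reads cannot be told apart. Myc shared 0% of its stretches (GRCm38, chr15:61985391-61990374, plus strand), and Utp20 0.140% (chr10:88746607-88826804, minus strand).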

How the data were processed

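RNA was extracted from whole intestinal tissue and sequenced as paired reads of 36 bases. The authors deposited raw counts per gene. Per the submitters' processing notes and the methods, reads passed FastQC 0.11.8 and Trim Galore 0.6.4, were aligned to GRCm38 with HISAT2 2.1.0 and counted with featureCounts 1.6.4; the strand setting and the handling of reads with several matches are not given in the sources used here. Depth ran from 516985 to 32824795 counts per library, which sets the precision of low genes. Of 55421 identifiers, 55240 had a symbol in GENCODE M21.

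Each comparison was fitted on its own groups with edgeR 4.0.16 in R 4.3.3 (filterByExpr, TMM, two-sided quasi-likelihood F test), with Benjamini-Hochberg adjustment over all genes tested and a threshold of 0.05. The standard error is the size of the log2 fold change divided by the square root of F. Differences between effects were contrasts in one fit of the 4 groups. Normalised CPM used TMM over all 53 libraries. Alternatives were DESeq2 1.42.0, RLE scaling, no filter, a replicate block, leaving out each library, and terms for Gm13394 and Ddx3y. The code was tested on simulated data. Any of the 35 genes could be named, and of each other list up to 2 genes with the largest and 2 with the smallest log2 fold change in a comparison; promoters were those with CACGTG, up to 4. The members and lists were chosen with earlier results of these data known. Per the study's reporting, replicates are independent animals. Promoter sequences are from RefSeq (GRCm38.p6). No column belonged to other samples.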

Additional observations from a re-analysis of the deposited data

Results flagged for a closer look

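In groups of 4 to 10 libraries, 10 of 315 gene and group pairs had 1 library far from the rest by Dixon's test, where chance gives about 1 in 20. Apcfl/fl replicate 1, the shallowest library, had Fbl at 25.5 normalised CPM, and Apcfl/fl replicate 8 had Nhp2 at 392. In BA antibiotic tissue, replicate 3 had Gar1 at 19.8 and Bop1 at 51.2, and replicate 5 had Mybbp1a at 101. BA tumour replicate 3 had Ncl at 85.5. Among Apcfl/+ tumours, replicate 4 had Noc3l at 24.2, replicate 2 had Mrto4 at 24.3 and replicate 3 had Gnl3 at 62.8. In BA tissue at day 30, replicate 5 had Rrs1 at 26.5 and replicate 4 had the lowest mean log2 level of the assembly genes, 5.14, in a group that spans 5.14 to 5.19.

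Effects differed between groups by the test of the difference itself in 27 genes between Apcfl/fl day 4 and BA day 30. Of all genes, 17.5% had a larger and 19.1% a smaller effect with Apc loss. Between Apcfl/fl day 4 and the effect of Braf on the A background 35 genes differed, beside 20.7% larger and 19.8% smaller of all genes. Between the tumour types 4 differed, beside 17.7% larger and 21.9% smaller of all genes, a smaller share than among all genes.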

How the results depend on the processing

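Acute Apc loss kept 35 of 35 genes higher under every alternative that used all of its libraries. The replicate numbers did not pair the libraries (no comparison had every same-numbered pair correlated over 0.1). With the replicate block, genes higher were 9 in Apcfl/+ tumours, 0 in BA tumours and 5 with antibiotics against BA, genes lower were 2 in BA against A and 0 with antibiotics, and the tumour effects differed in 0 (larger) and 1 (smaller). The Ddx3y term, which rests on 1 tumour library in Apcfl/+ and in BA tumours, gave a BA median of 0.149. The Gm13394 term, chosen after seeing the data, also rests on 1 library in BA tumours. One fit of the 5 groups at day 30 gave 9 higher in BA, and 0 higher and 0 lower with antibiotics. Without the filter, 2 were lower in BA against A and 0 had a smaller Apcfl/+ tumour effect, which was 1 with RLE and 1 with DESeq2.

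Leaving out 1 library gave 19 to 25 higher and 0 to 2 lower in Apcfl/+ tumours, 0 to 8 higher in BA tumours, 12 to 23 higher and 1 to 2 lower in BA, 2 to 5 higher and 3 to 9 lower in BA against A, 26 to 30 higher with antibiotics against WT, 4 to 12 higher and 0 to 1 lower against BA, and differing effects in 0 to 5 (larger) and 0 to 7 (smaller) genes for tumours, 26 to 32 for BA day 30 and 34 to 35 for the A background. Myc under sulindac against A ran from -0.0171 (without A sulindac replicate 2, which turned its sign) to 0.429, with no call.

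Over all genes, calls were 9504 after acute Apc loss and 5490 within libraries above 10 CPM of Gm13394, and 12650 in Apcfl/+ tumours against 8333 (block). In BA tumours they were 2527 against 931 (block) and 696 without WT proximal colon replicate 1. With antibiotics against BA they were 2172 against 1284 (block), 1074 (5 groups) and 1300 without BA antibiotic replicate 5. They were 25 in A against 132 (DESeq2) and 72 (no filter) and 15 or 16 without WT day 30 replicate 2, 3 or 4, 9 with sulindac against WT beside 109, 24, 2 (block) and 29 (5 groups), 4 or 5 without any one WT library and 18 without A sulindac replicate 1, and 0 against A beside 7, 1 and 1. The causes were not tested. Depth limits Apcfl/fl replicate 1 most.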
